A study of Mus musculus with 2 samples.

Results

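The 6 genes described here are the members of the mouse let-7 family whose symbols carry no copy number: Mirlet7b, Mirlet7d, Mirlet7e, Mirlet7g, Mirlet7i and Mir98. They were picked by symbol, through the GENCODE M21 name of each gene identifier, with earlier results of these data known. All 6 were found among the 2202 miRNA genes counted. The mice were females of the first-generation hybrid strain B6CASTF1/J, 2 months old, with no treatment in the labels. From total RNA of their left cerebral cortex, RNA under 30 nucleotides was sequenced. There were 2 libraries, from mice numbered 03 and 04, called animal 1 and animal 2 here after their biological replicate numbers. Both formed 1 group, so the questions open to the data are what level each member had in cortex and by how much the animals differed. Each animal gave a single library, so a difference between animals cannot be told apart from one between library preparations. The labels also give both libraries 1 shared donor identifier, so their origin from 2 separate mice rests on the mouse numbers.

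A miRNA is cut from a hairpin precursor and guides repression of messenger RNAs, which it recognises mainly through its seed, bases 2 to 8 of the mature strand. The let-7 family is known as a brake on growth and stem cell genes such as Hmga2, Myc and Lin28, and it rises as neural progenitors become neurons. In stem cells the protein LIN28 holds let-7 back by binding the loop of the precursor, and the family is abundant in the adult brain, where LIN28 is low. Neither LIN28 nor any target was measured here.

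The mature strands show what makes these genes a family and what sets each apart. All 6 members matched the RefSeq miRNA table (GRCm38.p6, the assembly that mm10 names), in which each has a 5p strand of 22 bases, printed here 5′ to 3′ with the seed in capitals.
let-7b-5p: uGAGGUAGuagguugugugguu
let-7g-5p: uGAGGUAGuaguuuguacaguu
let-7i-5p: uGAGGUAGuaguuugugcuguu
let-7d-5p: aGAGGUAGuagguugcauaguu
let-7e-5p: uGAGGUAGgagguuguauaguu
miR-98-5p: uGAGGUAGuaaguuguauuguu
let-7a-5p, from the copied gene Mirlet7a-1, for comparison: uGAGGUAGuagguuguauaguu

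All 6 carried 1 seed, GAGGUAG, and 14 of the 22 positions were identical in every member. Of the 8 positions that varied, only position 1 lay before the seed and none lay in it. Counting from 1 at the 5′ end and taking let-7a as the reference, let-7e differed by U9G alone. The strand of let-7d differed by U1A and U16C, which makes it the 1 member that does not start with U. A pair of changes set off let-7b (A17G and A19G), let-7g (G12U and U18C) and miR-98 (G11A and A19U). The most changed was let-7i, with G12U, A17G, U18C and A19U.

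Between members, 2 to 6 of the 22 bases differed, over 15 pairs. The closest pair was let-7g and let-7i, with 2 mismatches, and the farthest was let-7d and let-7i, with 6. Of the 6, 4 were closer to a copied relative than to any other member. Of these, let-7b lay 1 mismatch from let-7c, let-7e lay 1 mismatch from let-7a, and let-7d and miR-98 each lay 2 mismatches from let-7a. The sources used here do not say how mismatched bases were treated when reads were placed, and whether reads moved between such near neighbours was not tested.

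**Figure D1:**
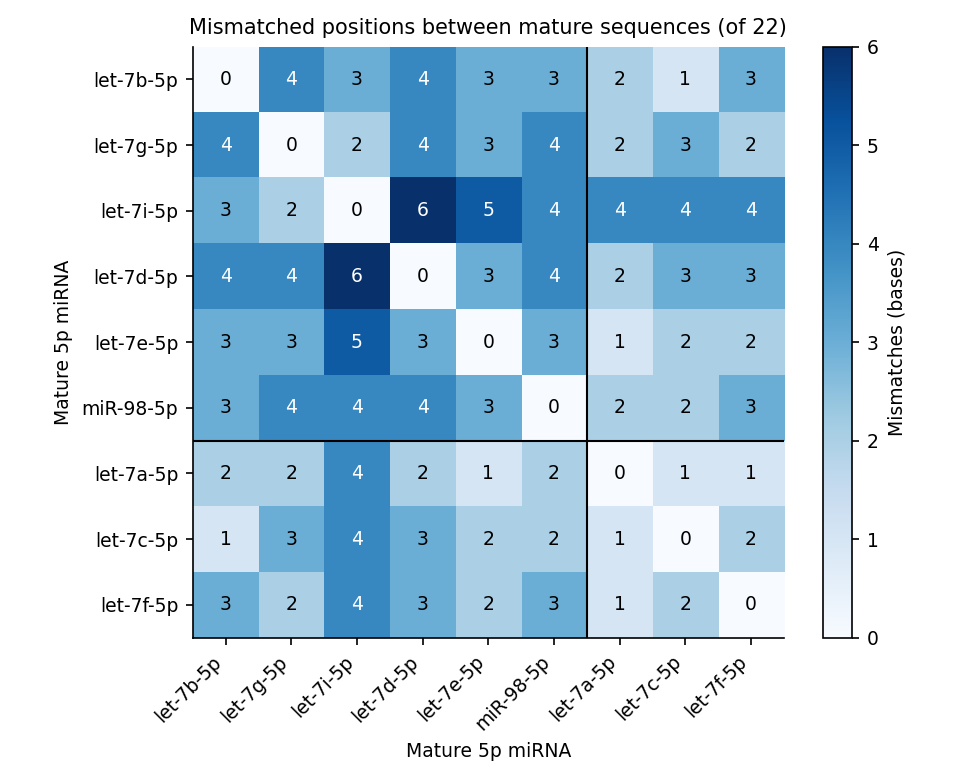
Number of mismatched bases (of 22) between mature 5p strands, for the 6 members (upper left block) and for let-7a, let-7c and let-7f, which come from copied genes; rows and columns are miRNAs and each cell holds the count. The members differ from each other by 2 to 6 bases, while let-7b and let-7e sit 1 base from let-7c and let-7a.

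No member's mature strand was found whole in another hairpin of the RefSeq table. Against the annotated sequences of all 2202 counted genes, the longest stretch that a member's hairpin shared with another was 14 bases for Mirlet7d, 17 for Mirlet7e and Mir98, and 19 for Mirlet7b, Mirlet7g and Mirlet7i. All 6 numbered let-7 copies, in contrast, shared 22 bases or more with another gene. This matters for the counts, because reads that mapped to several places form a separate entry in the deposited tables. Of the mapped reads, 48.9% (animal 1) and 48.2% (animal 2) fell into that entry. The rest of the genome was not searched, and the shortest read placed is not known. Whether reads of the members were lost to that entry was therefore not tested.

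The hairpins are printed 5′ to 3′ with the annotated 5p and 3p strands in capitals, since the deposited counts are per hairpin and do not separate the strands.
Mirlet7b: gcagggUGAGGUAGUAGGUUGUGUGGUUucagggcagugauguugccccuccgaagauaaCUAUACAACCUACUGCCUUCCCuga
Mirlet7g: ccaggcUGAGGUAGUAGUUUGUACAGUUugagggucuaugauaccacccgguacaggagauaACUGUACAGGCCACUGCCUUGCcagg
Mirlet7i: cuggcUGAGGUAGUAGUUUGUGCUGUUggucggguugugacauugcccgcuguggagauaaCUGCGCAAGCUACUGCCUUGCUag
Mirlet7d: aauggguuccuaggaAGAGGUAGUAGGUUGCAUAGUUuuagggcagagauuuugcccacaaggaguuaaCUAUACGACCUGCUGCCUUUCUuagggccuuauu
Mirlet7e: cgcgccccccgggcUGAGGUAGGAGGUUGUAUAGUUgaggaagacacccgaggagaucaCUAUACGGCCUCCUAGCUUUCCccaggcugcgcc
Mir98: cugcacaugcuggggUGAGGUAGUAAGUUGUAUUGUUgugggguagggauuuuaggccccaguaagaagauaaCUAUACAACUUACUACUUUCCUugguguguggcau

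Where the 5p strands share a seed, the 3p strands do not. Bases 2 to 8 of the 3p strand gave 5 different seeds: UAUACAA in both let-7b and miR-98, UAUACGA in let-7d, UAUACGG in let-7e, CUGUACA in let-7g and UGCGCAA in let-7i. A count for one of these genes may therefore hold products of 2 different seeds. Hairpin length ran from 85 bases (Mirlet7b and Mirlet7i) through 88 (Mirlet7g), 93 (Mirlet7e) and 103 (Mirlet7d) to 108 (Mir98). Predicted folding energy from RNAfold ran from -40.2 kcal/mol for Mirlet7g to -48.9 kcal/mol for Mirlet7d and Mir98. Per base this was -0.45 (Mir98) to -0.57 (Mirlet7b), against a median of -0.41 over the 1005 hairpins of the table.

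The stretch between the strands is the part that LIN28 is known to contact, in part through the letters GGAG. It was 32 bases long in Mirlet7b and Mirlet7d, 34 in Mirlet7g and Mirlet7i, 36 in Mir98 and 23 in Mirlet7e, against a median of 16 over the 644 hairpins with both strands annotated. GGAG, searched on the transcribed strand only, occurred there in 4 members: Mirlet7d, Mirlet7e, Mirlet7g and Mirlet7i. Among all 644 hairpins, 8.07% held it. The letters GAAG, searched after Mirlet7b and Mir98 were seen to lack GGAG, occurred in Mirlet7b, Mir98 and Mirlet7e, and in 6.68% of all. These are matches of letters and not measured binding.

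The members lie on 6 chromosomes, given here on mm10. Mirlet7b (ENSMUSG00000065564.1) occupies chr15:85707319-85707403 on the plus strand, within an exon of Lncppara, a noncoding transcript. Mirlet7d (ENSMUSG00000065453.1) occupies chr13:48536012-48536114 on the minus strand, within an exon of the lincRNA 6720427I07Rik. Mirlet7i (ENSMUSG00000065406.3) occupies chr10:122985640-122985724 on the minus strand, within an exon of D630033A02Rik, annotated as a transcribed processed pseudogene. The other 3 sit in introns of protein-coding genes on the same strand. Mirlet7g (ENSMUSG00000065440.1, chr9:106178840-106178927) is in Wdr82, which encodes a subunit of histone H3 methyltransferase complexes. Mirlet7e (ENSMUSG00000105758.1, chr17:17830352-17830444) is in Spaca6, a gene needed for sperm and egg to fuse. Mir98 (ENSMUSG00000065536.2, chrX:151913214-151913321) is in Huwe1, a ubiquitin ligase gene.

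Together the 6 genes made up close to 24.4% of the reads counted at miRNA genes in the cortex, or 10.4% of all mapped reads, which include those at several places. Animal 1 had 4415759 reads counted at miRNA genes and animal 2 had 2279562, and the members took 1116727 and 536901 of them. For animal 1 that is 25.3%, with exact Clopper-Pearson 95% bounds of 25.2 and 25.3%. For animal 2 it is 23.6%, with bounds of 23.5 and 23.6%, and the mean was 24.4% ± 1.23 (SD, n = 2). The difference between the animals was larger than counting error. The members held 98.2% of all counts at the 12 let-7 genes (the let-7 named genes and Mir98) in both animals. The numbered copies held 1.83% and 1.84%, a share that is uncertain because reads common to several places were set aside.

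Levels are given as CPM, the count per 1000000 counts at miRNA genes, and since every 5p strand has 22 bases, the levels were compared without a length correction. Mirlet7b, whose product is known to restrain neural stem cell growth through Tlx and cyclin D1, stood highest: animal 1 had 80626 CPM and animal 2 had 69612 CPM. Its mean was 75119 ± 7788 CPM. By counted reads it ranked 2 among all miRNA genes in animal 1 and 3 in animal 2. Of the 2202 counted genes, 1023 share 22 bases or more with another, and reads at several places were set aside. Ranks by counted reads are therefore uncertain as ranks of miRNAs in the cortex.

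Mirlet7g came next, at 60613 CPM (animal 1) and 57622 CPM (animal 2), a mean of 59117 ± 2115 CPM. Mirlet7i, the member least like let-7a in sequence, had 43061 and 40819 CPM. These genes stand alone, with no other counted miRNA gene within 10 kb on their strand. The values of the 2 genes did not overlap.

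Mirlet7d, known to repress Tlx in neural stem cells, measured 36615 CPM (animal 1) against 34946 CPM (animal 2). Mirlet7e had 30338 and 29884 CPM, the tightest pair of the 6, with an SD of 1.07% of its mean. In the 4 genes from Mirlet7g to Mirlet7e the SD was 3.78% of the mean or less. In Mirlet7b it was 10.4% and in Mir98 33.0%.

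Mir98 was the low member by far: 1643 CPM were counted from animal 1 and 2645 CPM from animal 2. Mirlet7e, the next above it, averaged 14.0-fold more and Mirlet7b 35.0-fold more. Mir98 was still not rare by counted reads. Its rank by mean level was 60 among all counted genes, with the same uncertainty as the rank of Mirlet7b. It lay above 85.5% of the 415 genes that reached 2 CPM in both animals. Those 415 genes had median levels of 75.6 CPM (animal 1) and 81.2 CPM (animal 2).

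The order of the members was the same in both animals: Mirlet7b, Mirlet7g, Mirlet7i, Mirlet7d, Mirlet7e, Mir98. At each of the 5 steps in this order, the lower animal of the upper gene lay above the higher animal of the gene beneath it. The narrowest step was from Mirlet7i to Mirlet7d, where these facing values differed 1.11-fold, and the widest was from Mirlet7e to Mir98, at 11.3-fold. With 2 animals these gaps describe the libraries and carry no test.

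**Figure D2:**
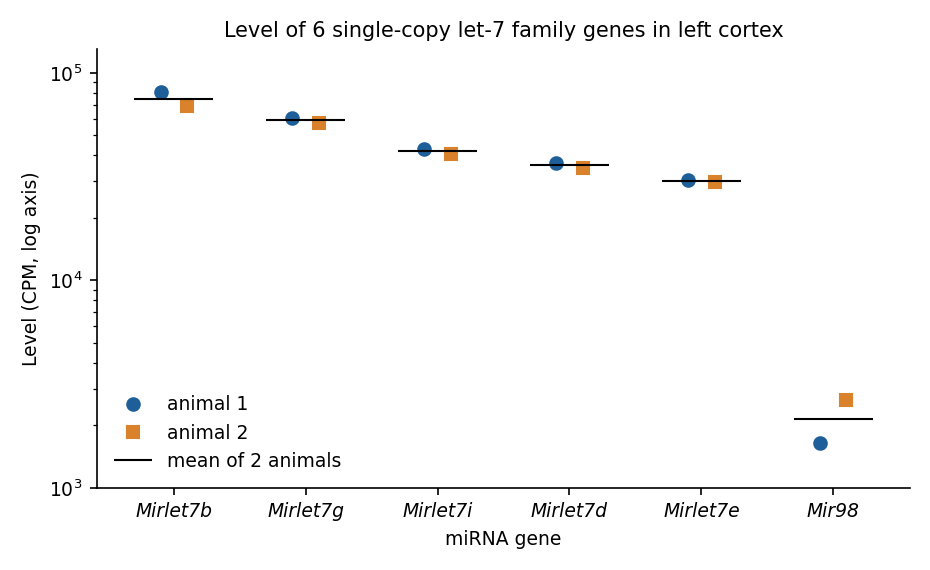
Level in CPM (log axis) of the 6 genes in animal 1 (circles) and animal 2 (squares), with the mean of the 2 animals as a bar; no error bar is drawn because both values are shown. The upper 5 genes lie between 29884 and 80626 CPM without overlap between neighbours, and Mir98 lies at 1643 and 2645 CPM.

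The balance between members can be read within each library, where the scaling between libraries plays no part. Of the 6 genes' counts, Mirlet7b held 31.9% for animal 1, with exact bounds of 31.8 and 32.0%, against 29.6% for animal 2, with bounds of 29.4 and 29.7%. Mirlet7g held 24.0% and 24.5%, Mirlet7i 17.0% and 17.3%, Mirlet7d 14.5% and 14.8%, and Mirlet7e 12.0% and 12.7%. Mir98 held 0.650% (bounds 0.635 and 0.665%) and 1.12% (bounds 1.10 and 1.15%). Mirlet7b thus took more of the total in animal 1, and every other member, Mir98 included, took more in animal 2. Since the shares have a fixed sum, a larger share for Mirlet7b lowers those of the rest.

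Of the 15 pairs of members, those among Mirlet7g, Mirlet7i and Mirlet7d had the most constant ratios. This restates their close log2 ratios between animals (0.07 to 0.08). Pairs of other counted genes were not compared in this way. Mirlet7g exceeded Mirlet7i 1.41-fold in each animal, Mirlet7g exceeded Mirlet7d 1.66-fold and 1.65-fold, and Mirlet7i exceeded Mirlet7d 1.18-fold and 1.17-fold. These 3 genes lie on separate chromosomes in different hosts, and their ratios moved by less than 1% between animals (1.003, 1.004 and 1.007 as the larger over the smaller). Against Mirlet7e each moved more, by 1.036-fold for Mirlet7g, 1.039-fold for Mirlet7i and 1.032-fold for Mirlet7d, all higher in animal 1. Mirlet7b over Mir98, by contrast, was 49.1 in animal 1 and 26.3 in animal 2, a 1.86-fold change.

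Between the animals, 5 members were higher in animal 1 and Mir98 alone went the other way. The log2 ratio of animal 1 over animal 2 was 0.21 for Mirlet7b (95% counting interval 0.20 to 0.22). It was 0.08 for Mirlet7i (0.07 to 0.09), 0.07 for Mirlet7g (0.06 to 0.08), 0.07 for Mirlet7d (0.06 to 0.08) and 0.02 for Mirlet7e (0.01 to 0.04). For Mir98 it was -0.69 (-0.74 to -0.64), which is 1.61-fold higher in animal 2. The interval is the exact Clopper-Pearson one for animal 1's share of the gene's 2 counts and covers counting error only, since reads copied by PCR are not independent molecules.

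All 6 intervals excluded 0, but that says little about these genes in particular. Of the 415 genes at 2 CPM or more in both animals, 56.6% also lay outside counting error, 27% higher in animal 1 and 29.6% higher in animal 2. Among the 100 genes averaging 1000 CPM or more, where counts are deep as in the members, 90% did. By size, few stood out. Past a log2 difference of 0.5 as well as counting error lay 1 member, Mir98, against 27.7% of the 415 genes (15.9% as higher in animal 2). The median absolute log2 ratio was 0.08 for the members, 0.34 for the 415 genes and 0.24 for the 100 abundant genes. Among those 100 genes, 7% had a smaller absolute ratio than Mirlet7e, 43% a smaller one than Mirlet7b and 76% a smaller one than Mir98.

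**Figure D3:**
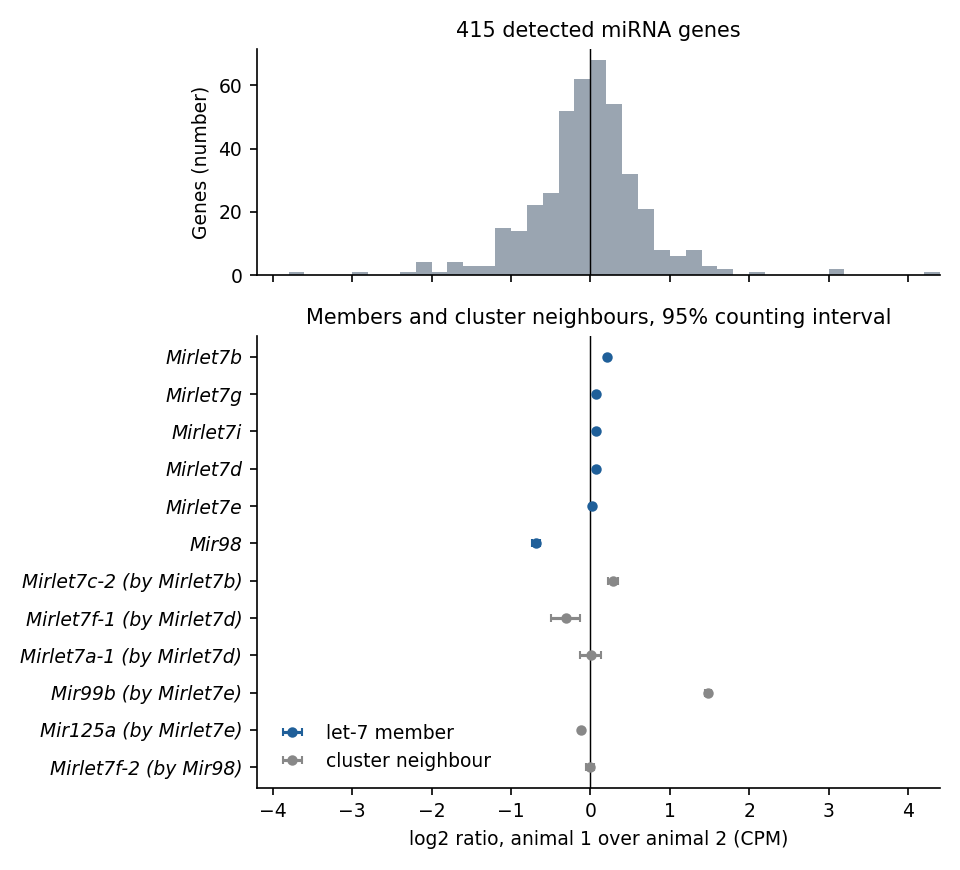
Log2 ratio of animal 1 over animal 2 (CPM). The upper panel counts all 415 genes at 2 CPM or more in both animals in bins along this ratio; the lower panel gives the 6 members (blue) and the miRNA genes within 10 kb on the same strand (grey), with 95% counting intervals. Of the members, 5 lie between 0.02 and 0.21 and Mir98 at -0.69, while the neighbour Mir99b lies at 1.48.

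Of the members, 4 have neighbours that may come from the same primary transcript, 6 genes in all. In the Mirlet7e cluster the genes parted. Mir99b starts 164 bp upstream and belongs to the miR-99 family, known to act on mTOR signalling. Animal 1 had 10367 CPM of it and animal 2 had 3710 CPM, a log2 ratio of 1.48 (counting interval 1.45 to 1.52). Mir125a, which starts 460 bp downstream and is related to worm lin-4, had 17115 and 18564 CPM, a log2 ratio of -0.12 (-0.13 to -0.10). Mirlet7e, between them, was level, so it exceeded Mir99b 2.93-fold in animal 1 and 8.06-fold in animal 2, and Mir125a 1.77-fold and 1.61-fold. The mature strands of these partners carry seeds of their own, and the whole 5p strand of neither was found in another hairpin.
miR-99b-5p: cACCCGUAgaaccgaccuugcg
miR-125a-5p: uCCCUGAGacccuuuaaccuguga

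Mir98 and its neighbour in Huwe1 also parted. Mirlet7f-2, whose start lies 868 bp upstream, measured 2103 CPM (animal 1) and 2114 CPM (animal 2), with a log2 ratio of -0.01 (-0.06 to 0.04) inside counting error. Mir98 was thus the lower of the pair in animal 1, at 0.781 of its neighbour, and the higher in animal 2, at 1.25-fold. Mirlet7f-2 shares its mature sequence with Mirlet7f-1, and its count is uncertain as a level. Its log2 ratio and the comparison with Mir98 also rest on reads left after shared ones were set aside.

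In the Mirlet7b cluster the genes moved the same way. Mirlet7c-2, whose start lies 716 bp upstream, measured 1403 CPM (animal 1) and 1150 CPM (animal 2), a log2 ratio of 0.29 (0.22 to 0.35) beside 0.21 for Mirlet7b. Mirlet7b was 57.5-fold and 60.5-fold higher. In the Mirlet7d cluster, Mirlet7a-1 had 313 and 312 CPM, inside counting error, and Mirlet7f-1 had 142 and 177 CPM, the higher value being animal 2's, at a log2 ratio of -0.31 (-0.49 to -0.13). Mirlet7d was 117-fold and 112-fold above Mirlet7a-1. The 3 neighbours named here are copied let-7 genes whose shared reads were set aside, so these folds and log2 ratios compare counted reads and not transcripts.

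**Figure D4:**
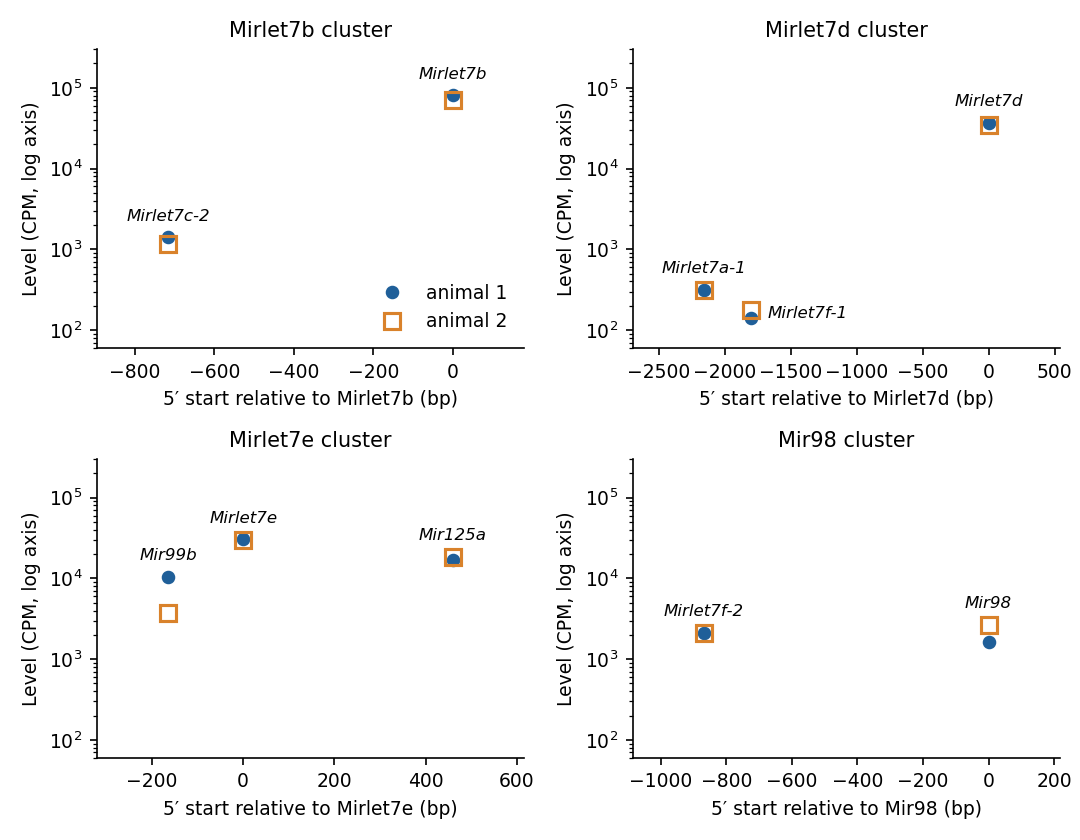
Level in CPM (log axis) against the distance in bp, along the transcribed strand, of each gene's 5′ start from that of the member, for the 4 members with neighbours within 10 kb; filled circles are animal 1 and open squares animal 2. Mir99b is the neighbour with the widest gap between animals (10367 and 3710 CPM), Mir98 lies outside counting error and Mirlet7f-2 inside it, and the copied let-7 genes near Mirlet7b and Mirlet7d lie far beneath them.

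Other miRNA genes tied to let-7 were read as 1 list of 13: the 6 numbered copies, the miR-99, miR-100 and miR-125 genes that accompany let-7 in its clusters, and Mir202. Of these, 12 reached 2 CPM in both animals, outside counting error were 6 with more in animal 1 and 3 with more in animal 2, and the remaining 3 lay inside it, beside 56.6% of all 415 genes outside it (27% and 29.6% by direction). Their median log2 ratio was 0.02, beside 0.07 for the 6 members and 0.00 over all 415 genes. Mir99a had 14898 and 14519 CPM, and Mir100 had 4829 and 4096 CPM. Mir125b-2 had 216 and 423 CPM, a log2 ratio of -0.97 (-1.10 to -0.84), whereas Mir125b-1, which yields the same family of product, was higher in animal 1 (1112 and 970 CPM). Mir125b-1 and Mir125b-2 each share 22 bases or more with another counted gene. Their counts and opposite ratios therefore rest on reads left after shared ones were set aside. Mir202, whose 3p strand has the near seed GAGGUAU, had 2 counts in animal 1 and 0 in animal 2.

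The seed itself was carried by 13 genes with a mature sequence in the RefSeq table, the 6 members and 7 others. Besides the copied let-7 genes, those others were Mir7k (the RefSeq name of its product is let-7k) and Mir1961, and 5 of the 7 were detected. Mir7k had 2 counts in each animal and Mir1961 had 0. The members held 98.2% of the counts at these 13 genes in animal 1 and 98.3% in animal 2. These shares cover counted reads only, and reads common to the copied genes were set aside, so they do not give the members' part of all RNA with this seed.

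By the rule of smallest distance over log2(CPM + 1) in the 2 animals, a few other genes lay close to the members. Mir127, an imprinted miRNA, was nearest to Mirlet7b (74548 and 63978 CPM, distance 0.17) and to Mirlet7g (distance 0.33). Mir744, with 38788 and 40153 CPM, was nearest to Mirlet7i (0.15), Mirlet7d (0.22) and Mirlet7e (0.55). Mir187, with 1405 and 2431 CPM, was nearest to Mir98 (0.26). With 2 libraries, this likeness reflects level for the most part.

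Strand decided whether Mirlet7e was seen at all. The annotation places a second miRNA gene, Gm25927, over it on the opposite strand. On its own strand Mirlet7e had 133966 and 68123 counts and Gm25927 had 0 and 1, while the column that ignores strand listed Mirlet7e at 0 in both animals. The ambiguous reads of that column numbered 280135 and 149823, and the Mirlet7e count equals 47.8% and 45.5% of them. The other 5 members had the same count in both columns or differed by 11 counts at most.

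Library composition also differed between the animals. Unmapped reads were 23.4% of all reads in animal 1 and 47.1% in animal 2, and 32.6% and 22.5% were counted at miRNA genes. Whether this bears on the differences at the members was not tested. The list of 15 neuron miRNAs had 11 detected members, none at 0 in both animals. Its summed level was 56628 CPM (animal 1) and 103850 CPM (animal 2). Of its detected genes 5 were higher in animal 1 and 4 in animal 2, beside 27% and 29.6% of all 415 genes. The direction of that sum rests on Mir132 (24389 and 79576 CPM): when it was left out, which was decided after seeing the data, the sums were 32239 and 24274 CPM. Every gene of this list except Mir132, Mir137 and Mir212 shares 22 bases or more with another counted gene. The sums without Mir132 therefore rest mostly on reads left after shared ones were set aside. The defining Mir124a copies had 11 counts or fewer each, but each shares 22 bases or more with another counted gene, and since reads at several places were set aside, these counts are uncertain as levels. The list of 13 liver, muscle and pluripotent cell miRNAs had 8 genes at 0 in both animals and summed to 85.4 and 55.3 CPM. Of those zeros, the ones at Mir1a-1, Mir1a-2, Mir133a-1 and Mir133a-2 are uncertain, since each shares 22 bases or more with another counted gene. Erythroid miRNAs (3 of 3 detected) had summed levels of 459 and 91.2 CPM, in the direction of the 5 members that were higher in animal 1. Mir451a carried most of that sum (385 and 43.9 CPM), while Mir486, which also shares sequence with another gene, had 33.5 and 38.2 CPM, inside counting error. Summed levels in the direction of Mir98 were those of the astrocyte list (5 of 5 detected; 9048 and 14074 CPM), the oligodendrocyte list (3 of 5; 1642 and 3463 CPM), the microglia and leukocyte list (6 of 6; 1807 and 2354 CPM), the vascular list (3 of 3; 11469 and 15155 CPM) and the choroid plexus list (2 of 2; 483 and 658 CPM). Inside counting error lay 3 of the 6 microglia and leukocyte genes, 1 of the 3 detected oligodendrocyte genes and 1 of the 2 choroid plexus genes. The other detected genes of these lists were higher in animal 2, as were 29.6% of all 415 genes. In the astrocyte list, Mir29a held most of the sum (8412 and 10012 CPM). Much of that list's difference lay in Mir31 (171 and 2361 CPM) and Mir21a (376 and 1562 CPM). Of these lists, the 1 with a gene at 0 in both animals was the oligodendrocyte list, with Mir219c. Its genes Mir219a-1 and Mir219a-2 (634 and 1667 CPM for Mir219a-2) each share 22 bases or more with another counted gene. So do Mir29b-1 and Mir29b-2 of the astrocyte list, and these counts are uncertain as levels. The part of the marker lists in the differences at the members was not tested. In bulk tissue a change in cell number and a change in level per cell cannot be told apart.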

How the data were processed

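MicroRNA-seq tables from 2 libraries of 1 group were used. The authors deposited unnormalized read counts for each miRNA gene in 3 columns: without regard to strand, on the strand of the read and on the opposite strand. The second was used, its role read from the values. Per the metadata files, reads were placed on mm10 and GENCODE M21 was the annotation; the sources used here do not give the aligner, trimming or read filters. The 4 summary entries were left out of totals: unmapped reads were 23.4% and 47.1% of all reads in animals 1 and 2, reads at several places 37.4% and 25.5%, reads at no gene 6.52% and 4.91%, and ambiguous reads 0 on this strand.

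All 2202 gene identifiers matched the annotation. CPM was the count over the library's sum of gene counts, times 1000000. A floor of 3 counts is 0.679 CPM (animal 1) or 1.32 CPM (animal 2). A single group offers no contrast to test, and p-values were not computed; the 2 libraries were compared by exact Clopper-Pearson intervals (scipy 1.17.1), a calculation tested on simulated data. Labels give the animals separate numbers but 1 shared donor identifier. Hairpins were folded with RNAfold 2.7.2. Mature and hairpin sequences are from RefSeq (GRCm38.p6); hairpin positions equalled the GENCODE positions for all 6 members.

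Named genes were, by rule, the members, miRNA genes within 10 kb on their strand, the let-7 list and the nearest gene to each member. The rule also took in genes overlapping a member, Mir139 where left out of the total, and erythroid, oligodendrocyte and vascular markers. Genes of the other marker lists were named outside this rule. Mir7k and Mir1961 were named after their values were seen. The members and lists were chosen with earlier results of these data known. Alternatives were TMM scaling (edgeR 4.0.16), DESeq2 1.42.0 size factors, other totals, the unstranded column, pseudocounts of 1 and 5, thinning of the deeper library, other background filters and leaving out either library. Scaling to a median log2 ratio of 0 was added after seeing the data.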

Additional observations from a re-analysis of the deposited data

Results flagged for a closer look

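Signals outside the counts used above were as follows. On the strand opposite Mirlet7b, 11 counts in animal 1 and 9 in animal 2 exceeded the 3 that a count of 0 allows; no annotated miRNA gene lies there, and the other members had at most 1. Reads mapping to several places numbered 5063531 in animal 1 and 2585568 in animal 2 and entered no gene's count.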

How the results depend on the processing

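No paired analysis was possible because the samples formed a single group. Of 124 values recomputed under an alternative, 100 stayed within the spread of the animals or kept their direction and call, and 24 moved. Some of the 100 could not have moved. With either animal left out, a level or share always lies within the SD of the animals from their mean. A pseudocount cannot reverse the direction of a ratio, and the members' intervals do not depend on the background filter. The count of 100 is therefore no measure of how stable the results are. All log2 ratios kept their direction under each alternative run and stayed outside counting error under each scaling and total (with pseudocounts the interval was not recomputed), with ranges of 0.21 to 0.26 for Mirlet7b, 0.07 to 0.13 for Mirlet7g, 0.07 to 0.13 for Mirlet7i, 0.06 to 0.12 for Mirlet7d, 0.02 to 0.07 for Mirlet7e and -0.69 to -0.63 for Mir98. The number of members outside counting error stayed at 6, and at 5 of the 5 that could be computed in the unstranded column. Levels moved with the total by construction. Without Mir139, the most abundant gene, in the total, Mirlet7b had 88155 CPM, Mirlet7g 69316, Mirlet7i 49176, Mirlet7d 41952 and Mirlet7e 35295, and the 6 genes held 28.6% of counts. Over all mapped reads the levels were 31973 per 1000000 for Mirlet7b, 25161 for Mirlet7g, 17850 for Mirlet7i, 15229 for Mirlet7d, 12815 for Mirlet7e and 912 for Mir98, and the share was 10.4%. In the unstranded column Mirlet7e was at 0 CPM and 0% of the 6 genes' counts, which left 4 of the 6 genes in their place in the order, and its log2 ratio could not be computed. There Mirlet7g had 63194 CPM, Mirlet7i 44832 and Mirlet7d 38248, the shares within the members were 35.0% for Mirlet7b, 27.6% for Mirlet7g, 19.6% for Mirlet7i and 16.7% for Mirlet7d, and the members held 22.9% of counts. Leaving out either animal kept the order. The share of all genes outside counting error was 34.3% over the 746 genes with any count and 67.4% over the 307 at 10 CPM or more in both, in place of 56.6%. Members had 6030 to 356023 counts each, and all 6 lay outside counting error also after the deeper library was thinned.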
